A study of Mus musculus with 8 samples.

Results

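Muscle contracts through the sliding of thin and thick filaments in the sarcomere, and 44 genes of that machinery and of the calcium store that drives it are described here in mouse skin. They were chosen by symbol as thin, thick and titin filament, M-band, Z-disc, membrane, energy and calcium handling genes of striated muscle, with the myosin heavy chains left out. All 44 were found, each in 1 row, among the 22564 genes of the deposited mRNA table. Of these, 39 reached a mean of 0.5 FPKM over the 8 libraries and were tested among 13324 such genes. The other 5, Tnni1, Tnnc1, Myl2, Myl3 and Sln, were listed at or near 0 in both groups. FPKM counts fragments per kilobase of transcript and per mapped fragment of the library, so that levels of different genes can be set side by side.

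The skin came from male C57Bl/6 mice aged 4 weeks, kept in specific-pathogen-free housing. In the irradiated group (4 libraries) the skin area had received 1 dose of 35 Gy from a 6-MeV electron beam, at 750 cGy/min, and was taken 24 h later. The nonirradiated group (4 libraries) was skin from areas outside the treated field. Total RNA was depleted of ribosomal RNA and sequenced as stranded libraries. The labels do not give the body site, the depth of the excised tissue, how many mice were used or whether equal replicate numbers mark 1 mouse, so the p-values speak of the spread among the 8 libraries, some of which may be technical.

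Mouse skin has a sheet of striated muscle, the panniculus carnosus, under the dermis and fat, built mainly of fast-twitch fibres. In a fibre, an action potential reaches the voltage sensor Cacna1s, which opens the release channel Ryr1, and calcium that binds troponin C lets tropomyosin move aside so that myosin can pull on actin. The pump Atp2a1 or Atp2a2 then returns calcium to a store where Casq1 and Casq2 hold it. Fast and slow fibres use different isoforms of many of these proteins, which is why pairs of fast and slow genes are compared below.

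Some libraries stood apart. Nonirradiated replicate 1 was above the other 3 nonirradiated libraries for 35 of the 39 tested genes, against 45.8% of all tested genes, and at a median of 2.97 times their mean (range 0.604 to 8.20). The exceptions were Tnnt1, Trdn, Dmd and Smpx. Against the irradiated libraries it was above their range for 10 genes, within it for 18 and below it for 11. Reads could be recovered from the deposited estimated counts and numbered 5036272 to 6626651 per library. The read count at which lowly read genes pile up, taken here as an assumption for the reads of 1 distinct fragment, was 20.4 to 80.2 in irradiated and 4.22 to 15.9 in nonirradiated libraries, and was highest in irradiated replicates 1 and 4. Genes listed above 0 numbered 9311 to 12921 in irradiated and 12566 to 14610 in nonirradiated libraries. Of 98 ribosomal protein and snRNP genes, which all cells use, 5 to 28 were listed at 0 in irradiated and 3 to 5 in nonirradiated libraries, so a value of 0 is given below only as listed.

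The muscle genes were higher in irradiated skin for most members, but none passed the test across all genes with the 8 libraries. The fitted change in log2(FPKM + 1) was above 0 for 37 of 39 members, against 43.9% of all tested genes, with a median of 1.15 over the members and -0.11 over all tested genes. Limma's adjusted p fell under 0.05 for 0 members in either direction, against a background of 0.12% of tested genes called higher and 0.128% called lower. The smallest was 0.0587, for Mybpc1. At an unadjusted p under 0.05, limma had 23 members higher and 0 lower, against 5.68% and 7.21% of tested genes. At an adjusted p under 0.05, edgeR on the estimated counts called 3 members higher (background 0.407%) and DESeq2 17 (background 2.4%). Limma called 1 member higher after quantile normalization (background 0.173%) and 2 after median ratio scaling (background 0.143%). In whole skin, the number of cells of a type and the RNA per cell cannot be told apart, and that holds for every value here. The irradiated and nonirradiated skin came from different areas, of unstated site and depth. The dose, the area and the amount of muscle taken with the skin therefore cannot be told apart either.

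Summed over the 44 genes, the level was 11324, 7790, 9234 and 8438 FPKM in irradiated replicates 1 to 4 and 8642, 2961, 3277 and 3636 FPKM in nonirradiated replicates 1 to 4. Nonirradiated replicate 1 lay within the irradiated range and the other 3 nonirradiated libraries lay below it. These genes took 7.03% to 7.94% of all recovered reads in irradiated libraries, 5.77% in nonirradiated replicate 1 and 2.47% to 3.20% in nonirradiated replicates 2 to 4. Much of that share is the very long Ttn transcript: without it the shares were 2.05% to 2.62%, 2.02% and 0.770% to 0.892%.

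Without nonirradiated replicate 1, limma called 16 members higher and 0 lower, against 0.447% and 0.129% of tested genes. That library is singled out because it stood high in these same genes. The fit without it, and its p-values here and below, are therefore a description and not separate support. Leaving out any other single library gave 0 calls. The 16 that rose in that fit were Tnnc2, Mb, Mybpc1, Ldb3, Myot, Neb, Tpm2, Ckm, Mylpf, Tnni2, Acta1, Tpm1, Cmya5, Actn2, Tnnt3 and Flnc, which are thin filament, thick filament, Z-disc and energy genes. No calcium handling gene was among them, but several were close to the threshold. Cacna1s, Trdn, Casq1, Jph1 and Atp2a1 had limma adjusted p-values from 0.0680 to 0.0950 in that fit. The median change of the members went to 1.65, and the irradiated group lay wholly above the other 3 libraries for 31 of 39 members. That count was 11 with all 8 libraries, against 3.99% of tested genes, and 7.3% of tested genes without the library. Of the 11, 9 also had no overlap in the estimated counts, and Casq2 and Cacna1s overlapped there.

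**Figure D1:**
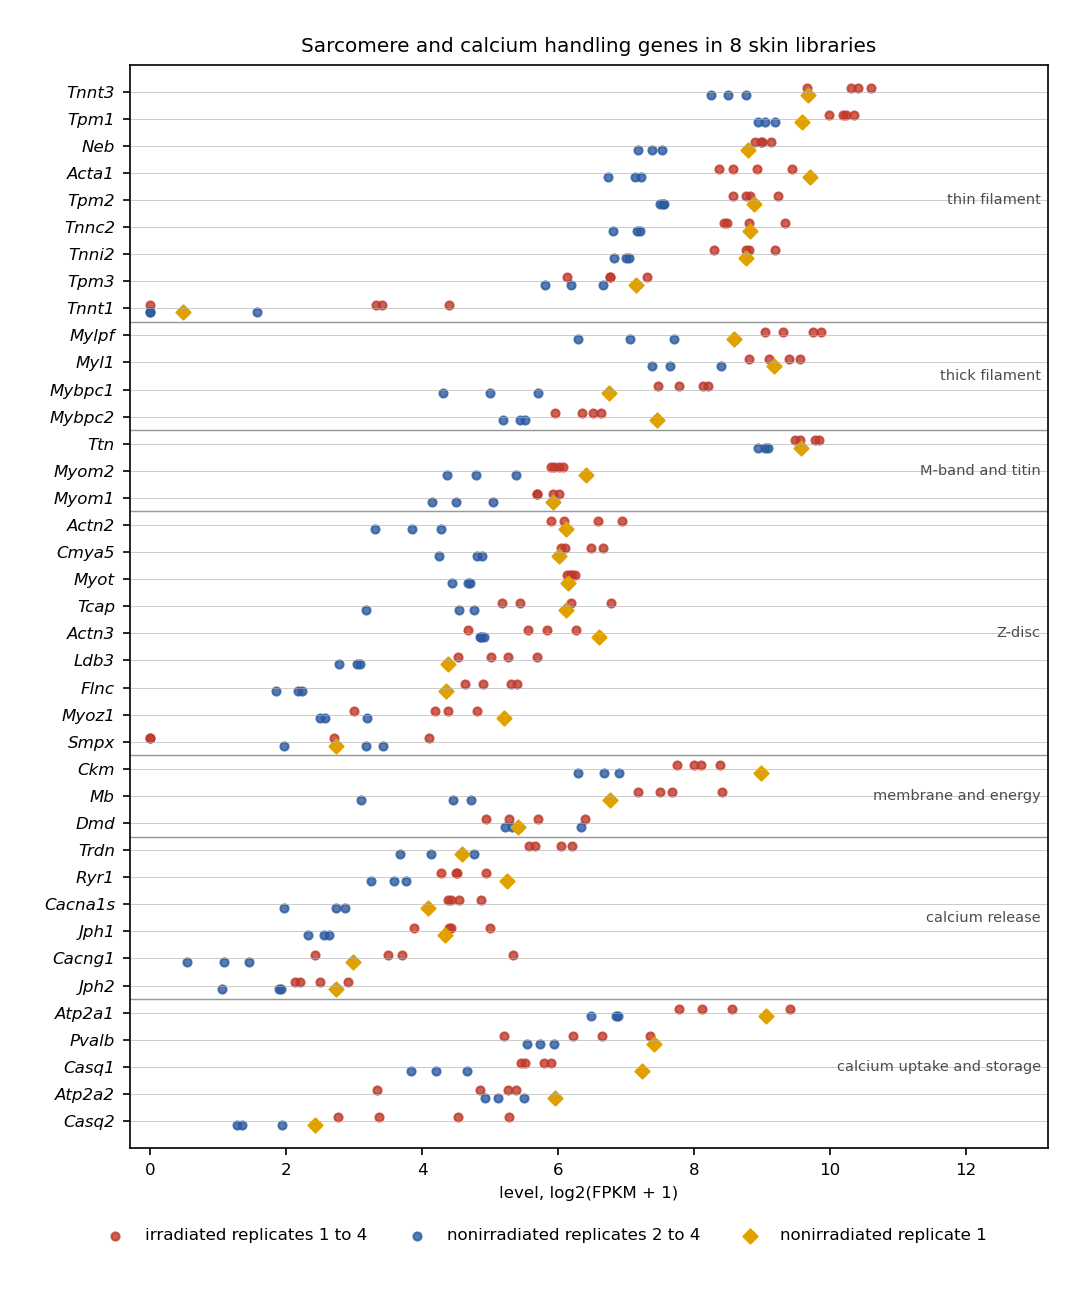
Level of each of the 39 tested genes in the 8 libraries, as log2(FPKM + 1) on the horizontal axis, grouped by role; red circles are irradiated replicates 1 to 4, blue circles nonirradiated replicates 2 to 4 and gold diamonds nonirradiated replicate 1. For 31 of the 39 genes every red circle lies to the right of every blue one, and for 11 it also lies to the right of the diamond.

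The promoters of a few members are shown to set the fast and slow genes of a pair side by side. Mybpc2 and Mybpc1 are named the fast and slow forms of myosin-binding protein C. They are a pair whose fast to slow ratio did not overlap between groups. Tnnc2 and Tnnc1 are fast and slow troponin C, of which Tnnc1 was listed at 0 in all but 1 library. Acta1, skeletal actin, is the one of the 5 with matches to 3 of the motifs searched. Each window runs from 250 bases before to 50 bases after the annotated start and comes from RefSeq (GRCm38.p6), 5′ to 3′ on the gene's own strand, with motif matches in capitals.
Mybpc2, chr7:44524620-44524919, minus strand: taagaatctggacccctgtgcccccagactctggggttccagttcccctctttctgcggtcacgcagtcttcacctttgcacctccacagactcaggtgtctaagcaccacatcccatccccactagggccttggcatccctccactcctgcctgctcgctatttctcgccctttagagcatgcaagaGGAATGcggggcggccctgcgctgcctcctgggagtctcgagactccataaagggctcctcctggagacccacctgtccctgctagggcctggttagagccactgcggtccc
Mybpc1, chr10:88605103-88605402, minus strand: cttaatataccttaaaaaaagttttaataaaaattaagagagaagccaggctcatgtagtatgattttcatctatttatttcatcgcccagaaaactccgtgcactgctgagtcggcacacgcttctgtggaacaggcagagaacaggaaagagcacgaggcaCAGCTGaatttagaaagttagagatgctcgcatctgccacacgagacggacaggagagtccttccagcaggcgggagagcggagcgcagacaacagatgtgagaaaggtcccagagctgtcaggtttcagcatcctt
Tnnc2, chr2:164779685-164779984, minus strand: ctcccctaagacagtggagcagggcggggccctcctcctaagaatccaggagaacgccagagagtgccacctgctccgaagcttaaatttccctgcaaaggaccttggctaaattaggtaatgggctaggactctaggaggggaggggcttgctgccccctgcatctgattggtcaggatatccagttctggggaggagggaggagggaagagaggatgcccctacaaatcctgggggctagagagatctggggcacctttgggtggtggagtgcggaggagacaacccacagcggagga
Tnnc1, chr14:31208062-31208361, plus strand: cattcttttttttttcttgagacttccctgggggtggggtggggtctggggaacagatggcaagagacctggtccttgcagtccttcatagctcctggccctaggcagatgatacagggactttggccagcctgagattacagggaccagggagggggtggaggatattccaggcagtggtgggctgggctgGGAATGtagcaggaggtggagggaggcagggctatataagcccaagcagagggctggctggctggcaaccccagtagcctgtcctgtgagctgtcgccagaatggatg
Acta1, chr8:123894726-123895025, minus strand: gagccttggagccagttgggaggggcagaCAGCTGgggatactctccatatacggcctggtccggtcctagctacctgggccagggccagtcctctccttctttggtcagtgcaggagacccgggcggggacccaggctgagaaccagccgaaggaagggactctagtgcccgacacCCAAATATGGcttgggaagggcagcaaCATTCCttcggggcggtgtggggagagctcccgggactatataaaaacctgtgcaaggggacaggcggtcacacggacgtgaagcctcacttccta

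The capitals mark an M-CAT element (CATTCC, the site read by TEAD factors, here on the other strand as GGAATG) starting 62 bases before the Mybpc2 start, and an E-box (CAGCTG, a site read by MyoD-family factors) 87 bases before the Mybpc1 start. In Acta1 they mark an E-box, a CArG box (the site read by serum response factor) and an M-CAT element 221, 73 and 46 bases before the start. Tnnc1 has an M-CAT element, also on the other strand, 58 bases before its start, and these motifs were not found in the Tnnc2 window. Both strands were searched, CAGCTG reads the same on both, and the printed matches do not overlap each other. A window was found for 31 of the 44 genes, 41 windows in all. The E-box was in 18 of them (43.9%), against 16.3% of the 32851 windows of all genes. The CArG box was in 6 (14.6% against 1.63%), the MEF2 site CTANNNNTAG in 5 (12.2% against 3.69%) and the M-CAT element in 10 (24.4% against 14.7%). A match describes the letters of the window and is not evidence that a factor binds there.

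Thin filament genes were among the most abundant members. Their 9 tested genes all had a change above 0 (43.9% of tested genes), from 0.29 to 2.27 with a median of 1.27. Of them, 7 rose without nonirradiated replicate 1, a call made for 0.447% of tested genes. Tnnt3, the fast troponin T that ties troponin to tropomyosin, stood at 1560, 806, 1355 and 1271 FPKM in irradiated replicates 1 to 4 and at 819.7, 304, 359 and 436 FPKM in nonirradiated replicates 1 to 4. Only irradiated replicate 2 and nonirradiated replicate 1 overlapped. The change was 1.45 with an SE of 0.32 (limma adjusted p = 0.0915), and 1.74 without nonirradiated replicate 1 (limma adjusted p = 0.0279).

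Tpm1, a tropomyosin of fast fibres and heart, was at 1308, 1013, 1204 and 1171 FPKM in irradiated libraries and 772, 489, 528 and 581 FPKM in nonirradiated ones. The groups did not overlap, and the change was 1.00 with an SE of 0.19 (limma adjusted p = 0.0684). Whether the Tpm1 reads come from fast fibres alone was not tested. Nebulin (Neb), the ruler along the thin filament, was at 513, 506, 561 and 475 FPKM against 443, 143, 183 and 165 FPKM. Again all irradiated libraries were higher, with nonirradiated replicate 1 close below them, and the change was 1.29 with an SE of 0.32 (limma adjusted p = 0.124). Tpm2, beta-tropomyosin, had 381 to 600.4 FPKM in irradiated libraries, 469.5 in nonirradiated replicate 1 and 180.1 to 187 in the other 3. Acta1 had its highest value of all, 835 FPKM, in nonirradiated replicate 1, against 329 to 692 FPKM in irradiated libraries and 106 to 148 FPKM in the other 3.

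Fast troponin I (Tnni2), the subunit that blocks actin at rest, stood at 435, 448, 584 and 314 FPKM in irradiated libraries and at 432, 131, 127 and 112 FPKM in nonirradiated ones. Fast troponin C (Tnnc2), the calcium sensor, stood at 643, 357, 447 and 345 FPKM and at 453, 111, 142 and 147 FPKM. In both genes nonirradiated replicate 1 sat among the irradiated libraries and the other 3 below them. Their changes were 1.36 and 1.27 with all libraries (limma adjusted p = 0.187 and 0.222) and 1.81 and 1.71 without nonirradiated replicate 1 (limma adjusted p = 0.0202 and 0.0340).

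The slow troponins were almost missing from the table. Slow troponin I (Tnni1) was listed at 0 in all 8 libraries and slow troponin C (Tnnc1) in 7, with 0.871 FPKM in nonirradiated replicate 2. Slow troponin T (Tnnt1) was listed at 20.0, 0, 9.68 and 8.98 FPKM in irradiated libraries and at 0.395, 0, 1.96 and 0 FPKM in nonirradiated ones. Its change of 2.27 had an SE of 0.89 (limma adjusted p = 0.321) and rested on few fragments, since its reads over the pile-up count, called piled-up fragments below, come to 4 over all irradiated and 3 over all nonirradiated libraries. A count of 0 allows up to 3 reads, which is 0.453 to 0.596 reads in 1000000 in these libraries and covers counting error only; Tnni2 had 95.5 to 492 reads in 1000000. If 3 piled-up fragments are taken as the limit, it is 2.29 to 40.6 reads in 1000000. Tpm3, the slow tropomyosin that also has forms in non-muscle cells, was at 157, 69.0, 108 and 107 FPKM against 140.3, 101, 55.1 and 71.8 FPKM, and the groups overlapped widely.

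Of the thick filament genes, the 4 tested had changes from 0.47 to 2.45. Mybpc1 (ENSMUSG00000020061, chromosome 10, 88518279 to 88605152, mm10), the slow myosin-binding protein C, was at 294, 176, 218 and 279.9 FPKM in irradiated libraries and at 107, 18.9, 30.9 and 51.2 FPKM in nonirradiated ones. Every irradiated library was above every nonirradiated one, and the means were 242 ± 55.1 and 51.9 ± 38.8 FPKM (SD, n = 4 each). The change of 2.45 with an SE of 0.45 had the smallest limma adjusted p of all members, 0.0587. Mybpc2 (chromosome 7, 44501699 to 44524656), the fast form, was at 90.9, 61.1, 98.0 and 81.1 FPKM against 174, 35.6, 44.7 and 42.5 FPKM. Nonirradiated replicate 1 had the highest value of the 8, and the change was 0.47 with an SE of 0.45 (limma adjusted p = 0.705).

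Mylpf, the regulatory light chain of fast myosin, was at 935, 525, 631 and 859 FPKM in irradiated libraries and at 383, 77.8, 132 and 208 FPKM in nonirradiated ones, with no overlap. Its change was 2.08 with an SE of 0.42 (limma adjusted p = 0.0816). Myl1, the essential light chain of fast myosin, was at 675, 755, 548 and 445 FPKM against 576, 166, 200.4 and 336 FPKM. Here nonirradiated replicate 1 lay within the irradiated range, and the change was 1.07 with an SE of 0.36 (limma adjusted p = 0.254). Their slow partners Myl2 and Myl3 were listed at 0 in all 8 libraries.

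The M-band and titin genes had changes in FPKM from 0.50 to 0.93. Titin (Ttn), the spring that spans the sarcomere from Z-disc to M-band, was at 713 to 916 FPKM in irradiated libraries, 762 FPKM in nonirradiated replicate 1 and 493 to 545 FPKM in the other 3. Myom1 and Myom2, which crosslink thick filaments at the M-band, had changes of 0.93 and 0.74. Limma's adjusted p was 0.322 for Ttn, 0.322 for Myom1 and 0.463 for Myom2, and none of the 3 passed without nonirradiated replicate 1. With DESeq2 on estimated counts Ttn (1.03) and Myom2 (1.25) were called.

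At the Z-disc, where thin filaments are anchored, 8 of 9 genes had a change above 0 (43.9% of tested genes) and 5 rose without nonirradiated replicate 1 (0.447% of tested genes). Flnc, the muscle filamin that crosslinks actin there, was at 38.4, 28.8, 41.1 and 23.9 FPKM in irradiated libraries and at 19.5, 3.69, 3.52 and 2.62 FPKM in nonirradiated ones. Ldb3, a PDZ-LIM scaffold, was at 50.7, 37.4, 31.3 and 22.2 FPKM against 19.8, 7.21, 7.52 and 5.86 FPKM. In both genes the groups were apart, with nonirradiated replicate 1 well above the other 3. Their changes were 2.40 (SE 0.54) and 1.80 (SE 0.42), with limma adjusted p-values of 0.0918 and 0.0988. Cmya5, a costamere protein also called myospryn, was at 88.3, 67.4, 65.0 and 101 FPKM against 63.7, 18.0, 27.1 and 28.4 FPKM. Its groups did not overlap either, by a margin of 65.0 to 63.7 FPKM, and the change was 1.33 (limma adjusted p = 0.154).

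Actn2 and Actn3 encode alpha-actinins, the first in all fibres and the second in fast fibres. Actn2 (chromosome 13, 12269426 to 12340760) was at 122, 67.1, 95.1 and 58.3 FPKM in irradiated libraries and at 68.4, 8.89, 13.4 and 18.4 FPKM in nonirradiated ones. Actn3 (chromosome 19, 4861216 to 4877909) was at 75.8, 45.9, 56.1 and 24.6 FPKM against 96.0, 29.1, 28.3 and 27.8 FPKM. So Actn2 was above Actn3 in all 4 irradiated libraries and below it in all 4 nonirradiated ones. The change was 1.99 for Actn2 (SE 0.54, limma adjusted p = 0.151) and 0.27 for Actn3 (SE 0.46, limma adjusted p = 0.841). Myot, which bundles actin, had 69.3 to 75.3 FPKM in irradiated libraries, 69.7 in nonirradiated replicate 1 and 20.8 to 25.1 in the other 3. The titin cap Tcap and the calcineurin-binding Myoz1 had changes of 1.24 and 0.73, and Myoz1 rested on 17 piled-up fragments in irradiated and 53 in nonirradiated libraries.

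Smpx, a small protein of the muscle membrane skeleton, was one of the 2 members with a change below 0. It was listed at 16.3, 0, 5.54 and 0 FPKM in irradiated libraries and at 5.67, 2.93, 8.01 and 9.76 FPKM in nonirradiated ones. The spread within the irradiated group exceeded the difference, which was -1.12 with an SE of 0.92 (limma adjusted p = 0.656), and the irradiated values rested on 3 piled-up fragments.

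Myoglobin (Mb), the oxygen store of oxidative fibres, had the largest change of all members on the log2(FPKM + 1) scale with all 8 libraries. Tnnt1 was above it with a pseudocount of 0.1 FPKM. In the count models Tnnt1 and Cacng1 were above it, at 3.60 and 2.71 with edgeR against 2.46. Mb was at 338, 179.7, 204 and 144 FPKM in irradiated libraries and at 108, 7.64, 21.0 and 25.4 FPKM in nonirradiated ones. The groups were apart, and nonirradiated replicate 1 stood at 5.99 times the mean of the other 3. The change was 2.93 with an SE of 0.63 (limma adjusted p = 0.0899), and 3.60 without nonirradiated replicate 1 (limma adjusted p = 0.0122). Ckm, the muscle creatine kinase, was at 215 to 334 FPKM in irradiated libraries and 77.9 to 119 FPKM in nonirradiated replicates 2 to 4, but at 506 FPKM in nonirradiated replicate 1. Dystrophin (Dmd), which links the cytoskeleton to the membrane and also has short forms in non-muscle cells, was at 29.8 to 83.2 FPKM in irradiated and 36.3 to 79.8 FPKM in nonirradiated libraries. Its change was 0.0047, with a sign that depended on the setting: -0.26 after quantile normalization and -0.12 after median ratio scaling.

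All 6 calcium release genes had a change above 0 (43.9% of tested genes), from 0.53 to 2.22 with a median of 1.52. Limma called 0 of them with or without nonirradiated replicate 1, against 0.12% and 0.447% of tested genes called higher. Triadin (Trdn), which ties the release channel to calsequestrin, was at 65.1, 49.6, 46.4 and 73.2 FPKM in irradiated libraries and at 23.2, 11.7, 16.5 and 26.1 FPKM in nonirradiated ones. Here nonirradiated replicate 1 did not stand out, the groups were apart and the change was 1.58 with an SE of 0.31 (limma adjusted p = 0.0684). Trdn was also 1 of the 3 members called by edgeR on the estimated counts, with Mybpc1 and Ldb3 (edgeR adjusted p = 0.0194 for Trdn, against 0.407% of genes called higher). DESeq2 called Trdn too (DESeq2 adjusted p = 1.39e-06, against 2.4% of genes called higher). Cacna1s was at 20.5, 28.3, 19.8 and 22.2 FPKM against 15.9, 5.69, 6.33 and 2.93 FPKM, with no overlap in FPKM, but in estimated counts it was at 261 to 956 against 122 to 816 and the groups overlapped. Its change was 1.64 with an SE of 0.45 in FPKM (limma adjusted p = 0.158) but 0.77 in estimated counts (edgeR adjusted p = 0.788).

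Ryr1 was at 18.3 to 29.8 FPKM in irradiated libraries, 37.2 FPKM in nonirradiated replicate 1 and 8.55 to 12.5 FPKM in the other 3. Jph1 and Jph2, the junctophilins that hold the membrane and store together, had changes of 1.46 and 0.53. Cacng1, the gamma subunit of the voltage sensor, ranged from 4.36 to 39.3 FPKM in irradiated and from 0.460 to 6.92 FPKM in nonirradiated libraries, from 14 and 8 piled-up fragments.

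Among the genes of calcium uptake and storage, the fast and the slow pump had differences of opposite sign, and neither passed the test. Atp2a1, the fast pump, was at 683, 219, 376 and 278 FPKM in irradiated libraries and at 534, 88.6, 115 and 117 FPKM in nonirradiated ones. Atp2a2, the pump of slow fibres and heart that also has a form in most other cells, was at 27.9, 9.14, 40.9 and 37.4 FPKM against 61.0, 33.7, 29.4 and 44.4 FPKM. Nonirradiated replicate 1 had the highest Atp2a2 and the second highest Atp2a1. The changes were 1.15 with an SE of 0.54 (limma adjusted p = 0.408) and -0.66 with an SE of 0.45 (limma adjusted p = 0.580).

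Casq1, the calsequestrin of fast fibres, was at 58.5, 42.9, 54.6 and 44.6 FPKM in irradiated libraries and at 150.3, 17.5, 24.2 and 13.3 FPKM in nonirradiated ones. The value of nonirradiated replicate 1 was 8.20 times the mean of the other 3, the highest such ratio of all members. Because of it, the mean FPKM was slightly lower in irradiated than in nonirradiated skin (50.2 ± 7.61 against 51.3 ± 66.1, SD, n = 4 each), while the change on the log2 scale was 0.68 (limma adjusted p = 0.689). Casq2, the slow and cardiac form, was at 5.77, 9.33, 22.0 and 38.0 FPKM against 4.40, 2.85, 1.43 and 1.56 FPKM. Its groups were apart in FPKM, with a change of 2.23 and an SE of 0.61 (limma adjusted p = 0.158), from 16 and 13 piled-up fragments. In estimated counts they overlapped, with 21.0 in irradiated replicate 1 against 14.8 to 32.0 in nonirradiated libraries. DESeq2 on these counts called Casq2 higher (2.45, DESeq2 adjusted p = 0.0276, against 2.4% of genes called higher). Parvalbumin (Pvalb), a calcium buffer of fast fibres, overlapped between groups at 35.9 to 162 and 45.5 to 169 FPKM. Its change of 0.20 turned to -0.11 after quantile normalization. Sarcolipin (Sln), a small inhibitor of the pump, was listed at 0 in 6 libraries, with 0.878 FPKM in irradiated replicate 3 and 1.97 FPKM in nonirradiated replicate 3.

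**Figure D2:**
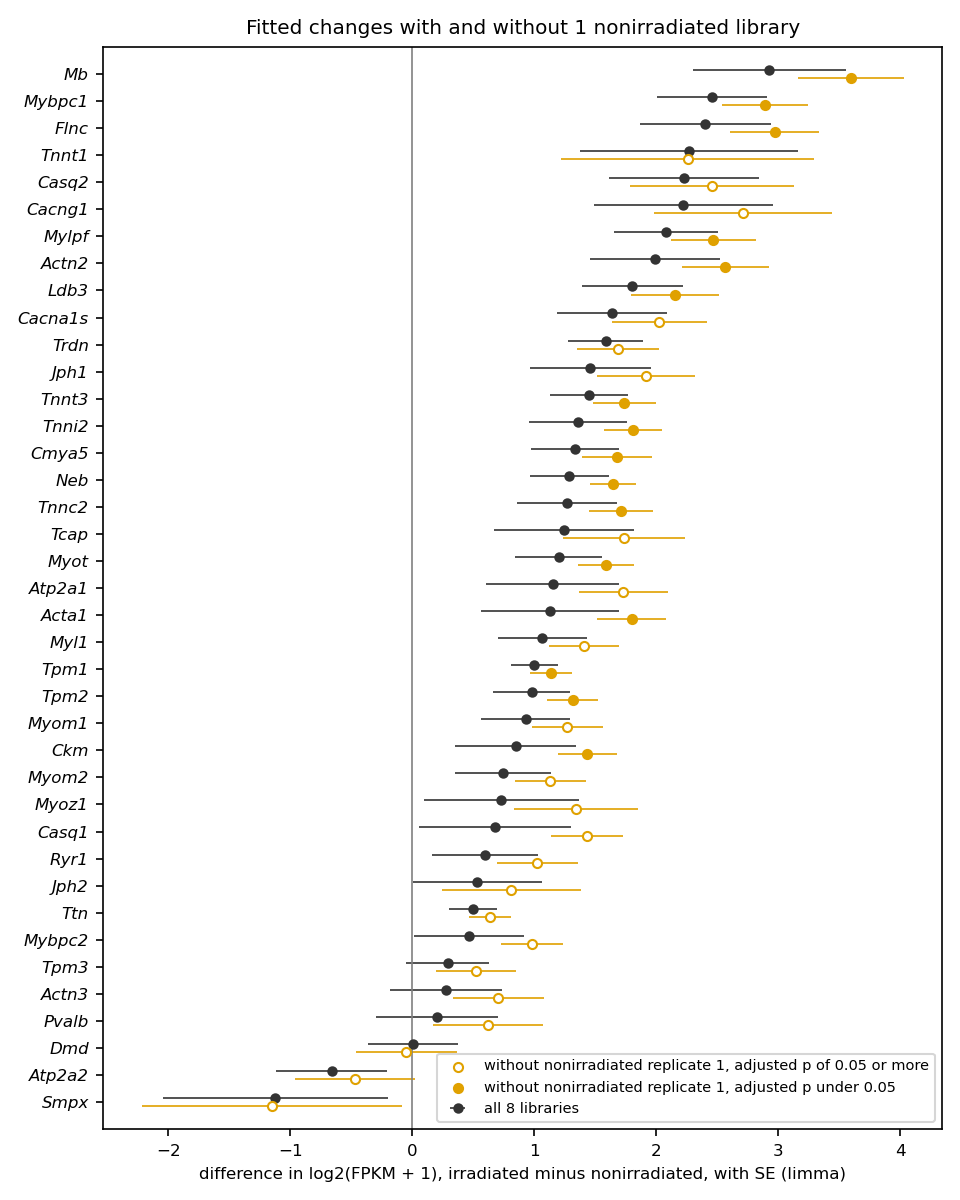
Fitted difference in log2(FPKM + 1), irradiated minus nonirradiated, for each tested gene with its SE from limma; black points use all 8 libraries and gold points leave out nonirradiated replicate 1, filled where the adjusted p is under 0.05. The 16 filled points are all to the right of 0, and Atp2a2 and Smpx lie to the left of 0 in both fits.

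Fast and slow isoforms were set against each other as a ratio within each library. A plain ratio does not depend on how much muscle RNA the library holds if both genes come from muscle alone. The tested ratio adds 1 FPKM to both genes, so it does depend on that amount where the slow gene is low. Where Tnnt1 was listed at 0, the value is that of Tnnt3 alone, such as 9.66 in irradiated replicate 2. Of 10 pairs, 4 gave no ratio because the slow gene was at or near 0 throughout, those of troponin I, troponin C and the regulatory and essential light chains. The other 6 were tested by two-sided exact permutation, which cannot give a p under 0.0286 with 4 against 4 libraries. After adjustment over the 6 pairs none passed, the smallest adjusted p being 0.0857. The 2 pairs without overlap already had the smallest possible exact permutation p, so a larger difference could not have lowered their adjusted p. That they did not pass says little about them. The median difference in log2 ratio over the 6 was -1.19, and 4 of 6 were lower in irradiated skin. The 4 include the alpha-actinin pair, whose Actn2 is made in all fibres.

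Myosin-binding protein C was one of the pairs whose ratio did not overlap between groups. Mybpc1 is slow by name, but it was at 18.9 to 294 FPKM in libraries that listed slow Myh7, Tnni1, Myl2 and Myl3 at 0. Which fibres its RNA came from was not tested. The FPKM ratio of Mybpc2 to Mybpc1 was 0.309, 0.348, 0.449 and 0.290 in irradiated libraries and 1.63, 1.89, 1.45 and 0.830 in nonirradiated ones. Nonirradiated replicate 1, at 1.63, lay among the other nonirradiated libraries here, and the groups did not overlap. On the log2 scale the ratio was -1.53 ± 0.28 in irradiated and 0.46 ± 0.50 in nonirradiated skin (SD, n = 4 each), a difference of -1.99 (exact permutation p = 0.0286, adjusted p = 0.0857). It was -1.91 without nonirradiated replicate 1, where the smallest exact p for 3 against 4 libraries is 0.0571, and -2.13 from the estimated counts.

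The alpha-actinins differed in the same direction, though Actn2 is made in all fibres and is not a form of slow fibres alone. The ratio of Actn3 to Actn2 was 0.621, 0.684, 0.589 and 0.422 in irradiated libraries and 1.40, 3.27, 2.10 and 1.51 in nonirradiated ones, again with no overlap and with nonirradiated replicate 1 at 1.40. The difference in log2 ratio was -1.72 (exact permutation p = 0.0286, adjusted p = 0.0857), -1.86 without nonirradiated replicate 1 and -1.87 from the estimated counts. Casq1 to Casq2 differed by -1.55 (exact permutation p = 0.114, adjusted p = 0.137) with overlap. Tnnt3 to Tnnt1 differed by -0.82 (exact permutation p = 0.429, adjusted p = 0.429), which turned to 0.034 without irradiated replicates 1 and 4, and 3 of its 8 libraries listed Tnnt1 at 0.

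The calcium pump and tropomyosin pairs differed in the other direction. Atp2a1 to Atp2a2 was 24.5, 24.0, 9.21 and 7.43 in irradiated libraries and 8.76, 2.63, 3.90 and 2.65 in nonirradiated ones. Only nonirradiated replicate 1 overlapped the irradiated range, and the difference in log2 ratio was 1.81 (exact permutation p = 0.0571, adjusted p = 0.0857). Tpm1 to Tpm3 was 8.31 to 14.7 against 4.85 to 9.59, a difference of 0.71 (exact permutation p = 0.0571, adjusted p = 0.0857). Atp2a2 and Tpm3 are also made outside muscle, and the part of other cells in these ratios was not tested. Whether the Tpm1 reads come from striated muscle alone was not tested either.

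**Figure D3:**
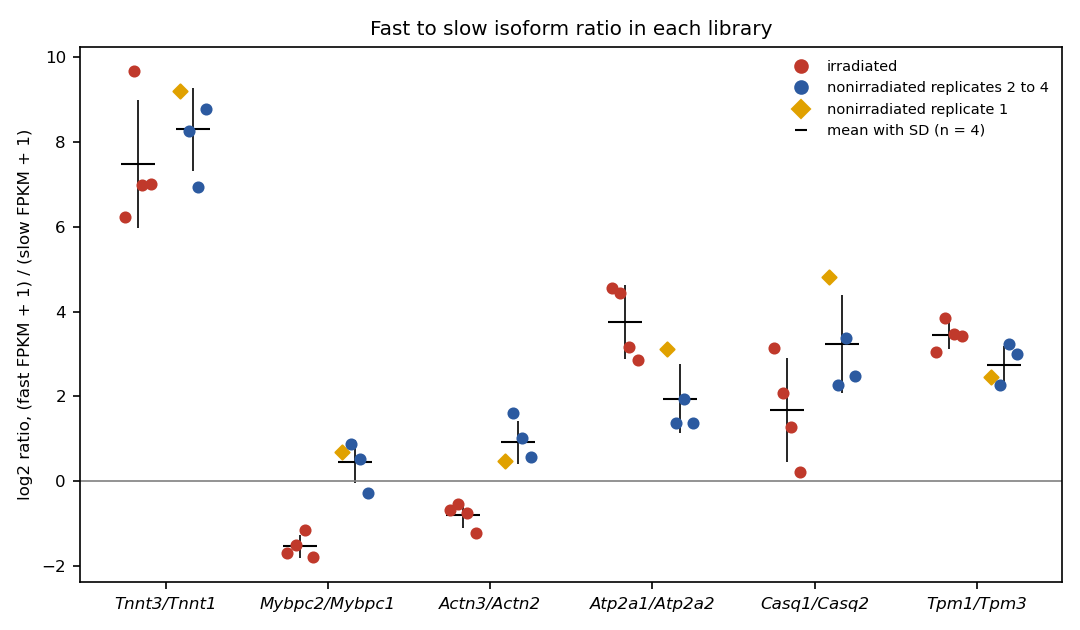
Log2 ratio of the fast to the slow isoform, (fast FPKM + 1) over (slow FPKM + 1), in each library for the 6 pairs that gave a ratio; red is irradiated, blue nonirradiated replicates 2 to 4, gold nonirradiated replicate 1, and black marks the mean with SD (n = 4). The Mybpc2/Mybpc1 and Actn3/Actn2 points of irradiated skin all lie below 0 and below all nonirradiated points. Actn2, placed on the slow side here, is made in all fibres. Which fibres the Mybpc1 RNA came from was not tested.

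Each gene can also be given as its share of the summed FPKM of the 44 genes. That sum includes genes also made outside muscle, such as Atp2a2, Tpm3 and Dmd, so the shares do not describe muscle alone. Mybpc1 took 2.26% to 3.32% of it in irradiated libraries and 0.638% to 1.41% in nonirradiated ones, and Mb 1.71% to 2.99% against 0.258% to 1.25%. Mylpf, Ldb3 and Flnc had higher shares in every irradiated library too. Actn3 took 0.291% to 0.669% against 0.765% to 1.11% and Mybpc2 0.785% to 1.06% against 1.17% to 2.01%. Atp2a2 and Tpm3 were the other members with a lower share in every irradiated library. The part of other cells in their shares was not tested.

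Nonirradiated replicate 1 did not differ from the irradiated libraries in the same way for all genes. The 10 genes it held above their range were Acta1, Actn3, Mybpc2, Myom2, Myoz1, Ckm, Ryr1, Casq1, Pvalb and Atp2a2. The 11 it held below their range were Neb, Tpm1, Mylpf, Mybpc1, Ldb3, Cmya5, Flnc, Mb, Casq2, Cacna1s and Trdn, the genes whose groups do not overlap. By their side in the pairs, fast genes (Actn3, Mybpc2, Casq1) were among the first. Slow genes (Mybpc1, Casq2) were among the second, together with Mb. But Atp2a2, placed on the slow side, was among the first, and Mylpf and Tpm1, placed on the fast side, were among the second.

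Other muscle genes, from lists chosen with earlier results of these data known, differed by list, and are to be read against 43.9% of tested genes with a change above 0 and 0.12% called higher. Of 19 tested sarcomere and Z-disc genes outside the 44, all had a change above 0, with a median of 1.56, and 2 rose: Myoz2 (3.09, limma adjusted p = 0.0282), a slow-fibre relative of Myoz1, and Lmod2 (2.10, limma adjusted p = 0.0193), which builds thin filaments. Nrap, which takes part in sarcomere assembly, had a change of 2.16 (limma adjusted p = 0.0918). Without nonirradiated replicate 1, 5 of the 19 rose, against 0.447% of tested genes. Of 17 tested excitation-contraction genes, 12 were above 0 and 0 were called, with Cacna2d1 (1.77), Srl (1.51) and Hrc (1.17) first by p. In the dystrophin complex 10 of 12 were above 0 and 0 called, with changes of 2.65 for Dtna and 1.01 for Sgcb. Muscle energy genes had 10 of 15 above 0 and 0 called, led by Ckmt2 (1.99), Ldha (1.02) and Gpd1 (2.32), the last from 5 piled-up fragments in irradiated and 0 in nonirradiated libraries.

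The myosin heavy chains are markers of fibre types, but the values here are RNA levels of whole skin and fibre types were not measured. Myh1, of fast 2X fibres, was at 708 to 1125 FPKM in irradiated and 38.4 to 263 FPKM in nonirradiated libraries and was the 1 called of 5 tested (3.37, limma adjusted p = 0.0208). Myh2, of fast 2A fibres, was at 127, 62.7, 88.6 and 79.5 FPKM against 45.1, 9.99, 11.8 and 10.7 FPKM (2.40, limma adjusted p = 0.0644). Myh4, of the fastest 2B fibres, was at 58.5 to 185 FPKM against 321 to 799 FPKM, with its highest value in nonirradiated replicate 1 (-1.83, limma adjusted p = 0.0912). Slow Myh7 was listed at 0 in all 8 libraries, as were slow Tnni1, Myl2 and Myl3.

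The epidermal keratins Krt14, Krt5, Krt10 and Krt1, which mark the labelled tissue, were above 0 in all 8 libraries. Their summed level was 1701 to 3182 FPKM in irradiated and 1188 to 1738 FPKM in nonirradiated libraries. Their change was above 0 for 4 of 4, against 43.9% of tested genes, and 0 were called, against 0.12% called higher. All 4 hair follicle markers were lower, against 56.1% of tested genes, and 2 were called (Krt71 and Tchh), against 0.128% called lower. They summed to 404 to 863 FPKM in irradiated and 1295 to 1883 FPKM in nonirradiated libraries. Nonirradiated replicate 1, at 1501 FPKM, was like its own group. Smooth muscle markers summed to 153 to 246 FPKM in irradiated libraries, 225 FPKM in nonirradiated replicate 1 and 104 to 133 FPKM in the other 3, and Des, which striated muscle also makes, was at 98.4 to 133, 114 and 27.7 to 41.6 FPKM. Without Des the smooth muscle sums overlapped, at 46.2 to 113 FPKM in irradiated and 76.4 to 110.4 FPKM in nonirradiated libraries. Dermal fibroblast markers (204 to 296 against 204 to 300.3 FPKM) and adipocyte markers (1294 to 2069 against 1097 to 1349 FPKM) had 2 of 4 above 0 each and 0 called. These shares above 0 are near the 43.9% of all tested genes. Heart muscle markers summed to 3.41 to 18.6 FPKM with Nppa listed at 0 throughout, and satellite cell markers to 0 to 12.4 FPKM. The part of epidermis, hair follicle or the read pile-up in the differences of the muscle genes was not tested.

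**Figure D4:**
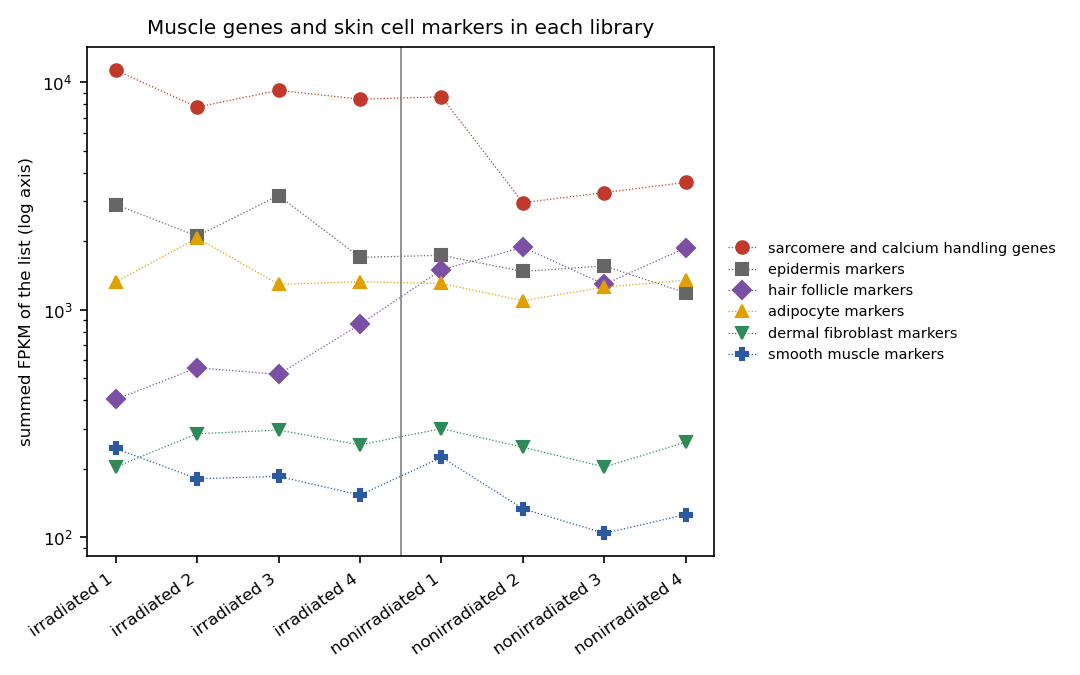
Summed FPKM of the 44 genes and of 5 marker lists in each library, on a log axis. The red circles of nonirradiated replicate 1 (8642 FPKM) and the irradiated libraries (7790 to 11324 FPKM) lie above those of nonirradiated replicates 2 to 4 (2961 to 3636 FPKM), whereas the purple diamonds of hair follicle markers separate all 4 irradiated from all 4 nonirradiated libraries.

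FPKM and estimated counts did not give the same size of change for every member. For 15 members the FPKM that 1 count was worth differed between libraries by an SD above 0.1 (log2), most for Casq2 (0.82), Cacna1s (0.71), Dmd (0.59) and Myom2 (0.53). The change was 0.50 in FPKM and 0.99 in counts with edgeR for Ttn, 1.15 and 0.27 for Atp2a1, 0.74 and 1.21 for Myom2, and 0.68 and 0.31 for Casq1. Mybpc1 (2.45 and 2.29), Mb (2.93 and 2.46), Flnc (2.40 and 2.22) and Ldb3 (1.80 and 1.99) had similar values in both. In the annotation, 11 members overlap another gene of the table on the opposite strand (Acta1, Tnnt3, Tnnc1, Tnnc2, Myl2, Myl3, Myom1, Ckm, Mb, Atp2a1 and Dmd), and since the use of strand in counting is not given, reads of the 2 genes cannot be told apart. Acta1 also shares much of its coding sequence with other actin genes, so its level is uncertain.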

How the data were processed

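Per the file headers, the deposited table gives FPKM for each gene and library. It also gives deposited estimated counts. The submitters' processing notes name HISAT2 2.0.4, cutadapt 1.9.3, Cuffdiff, Cufflinks and mm10 without their roles. Which annotation was used, and whether counting used strand, is not given in the sources used here. The table has 22565 rows, 1 of them empty and left out. No library was dropped or imputed.

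Irradiated was compared with nonirradiated skin in limma 3.58.1 (R 4.3.3), fitted to log2(FPKM + 1) with trended and robust variance moderation. Genes under a mean of 0.5 FPKM were left out, and Benjamini-Hochberg adjustment covered all 13324 others, with calls at an adjusted p under 0.05. The log2(FPKM + 1) scale understates the change of low genes. Isoform ratios were tested with exact two-sided permutation tests (scipy 1.17.1), adjusted over 6 pairs. A pair whose slow gene was at or near 0 gave no ratio. The deposited estimated counts were rounded for edgeR 4.0.16 and DESeq2 1.42.0, which were alternatives only.

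Each library's counts are mostly multiples of 1 step (0.871 to 1.10). After division by it, 92.6% to 96.6% of the values below 2000 steps were whole to within 0.02, and these whole reads were tested with edgeR as an alternative. The piled-up fragments of the text are a gene's reads over the library's pile-up count (searched between 3.5 and 300 reads), an assumption about duplicated fragments that covers counting error only.

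The members and lists, the pairs and the rule for the genes named were chosen with earlier results of these data known. The rule gives every library's value for both genes of each pair, for members with an unadjusted p under 0.05 and groups that do not overlap, and for the 4 largest changes in each direction (2 existed below 0). It names up to 3 genes of each other list by smallest p, and Myh1, Myh2, Myh4 and Myh7. A gene that this rule would name in the dystrophin complex is not reported here. Values of other members were added. The gene Mrln of the excitation-contraction list and Adgre1 of a macrophage list were not analysed here. Pericyte, endothelium, Schwann cell and macrophage markers, also summed, had medians of -0.10, -0.31, -0.03 and -0.53 with 0 called. Gene positions come from GENCODE M21 on the assembly of mm10, and promoters from RefSeq. The fits were checked on simulated data. Alternatives were another pseudocount, other filters on low values, other scalings, each library left out, a replicate block and the count models.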

Additional observations from a re-analysis of the deposited data

Results flagged for a closer look

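Of 90 groups of 4 libraries examined, 19 had 1 library whose gap to its nearest neighbour took more of the group's range than Dixon's 95% critical value for 4 values allows. Chance flags about 1 in 20 groups, and values of the same library are not independent. In 18 of the 19 the library was nonirradiated replicate 1 and it was the highest. Among thin filament genes the gap over the range was 0.8663 for Neb, 0.9421 for Acta1, 0.9413 for Tnni2, 0.8948 for Tnnc2 and 0.9746 for Tpm2. Among thick filament and Z-disc genes it was 0.9342 for Mybpc2, 0.8405 for Actn2, 0.9816 for Actn3, 0.9133 for Myot, 0.8907 for Myoz1, 0.8807 for Ldb3 and 0.9363 for Flnc. Among energy and calcium genes it was 0.9048 for Ckm, 0.8613 for Ryr1, 0.9352 for Atp2a1, 0.9205 for Casq1, 0.9211 for Jph1 and 0.8801 for Pvalb. For Dmd the high library was nonirradiated replicate 4, at 79.8 FPKM, with a gap over the range of 0.8754.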

How the results depend on the processing

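Limma on all 8 libraries called 0 members higher, with 23 at an unadjusted p under 0.05. The count was 1 after quantile normalization (Mybpc1), 2 after median ratio scaling (Mybpc1, Tpm1), 3 with edgeR on estimated counts and 3 on recovered reads (added after seeing the data), and 17 with DESeq2. It ranged from 0 to 16 with each library left out, and the 16 came without nonirradiated replicate 1; the other libraries gave 0. Of the 17 and the 16, 13 are the same genes. Deviations of libraries with equal replicate numbers had correlations of 0.020, -0.013, 0.012 and 0.090. These values cannot show whether equal numbers mark the same mouse. With the replicate block 2 members were called higher (Mybpc1 and Mylpf, against 0.0826% of genes). The genes without overlap numbered 11 to 31 with each library left out, again highest without nonirradiated replicate 1. The median over pairs was -1.84 with a pseudocount of 0.1 FPKM. The Tnnt3/Tnnt1 pair turned to 0.034 without irradiated replicates 1 and 4, a setting added after seeing the data.

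Of 702 values of single members under alternatives, 16 reversed sign, for 3 genes. Tpm3 was -0.035 after quantile normalization, -0.0024 without irradiated replicates 1 and 4, -0.075 and -0.074 with edgeR on counts and reads and -0.032 with DESeq2. Pvalb was -0.11 after quantile normalization and -0.13 to 0.62 with each library left out (-0.0035 without nonirradiated replicate 4). Dmd was -0.26 after quantile normalization, -0.12 after median ratio scaling, -0.084 without irradiated replicates 1 and 4 and -0.27 to 0.26 with each library left out. The cause of these changes was not tested. Tnnt1, Smpx, Casq2 and Cacng1 rest on few piled-up fragments.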
